A study of Mus musculus with 2 samples.

Results

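CD4 T cells made up 252 of the 15695 droplets that passed the cell filters in whole mouse lung, 142 of 7988 in the control library and 110 of 7707 in the library from conditioned lungs. A droplet was taken as a CD4 T cell when it held at least 1 unique molecular identifier (UMI, a tag that marks 1 captured RNA molecule) of Cd3d, Cd3e or Cd3g, which encode signalling chains of the T cell receptor complex, and at least 1 UMI of Cd4, the coreceptor that binds MHC class II. It also had to hold no UMI of Cd8a or Cd8b1, the coreceptor chains of CD8 T cells. Droplets with a UMI of Cd79a, Cdh5, Epcam, Col1a2 or Csf3r, which mark B cells, endothelium, epithelium, fibroblasts and neutrophils, were left out. The cells were thus chosen by the measured values of these genes, so those values are given as a description only.

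Single-cell RNA sequencing was performed on lungs of female BALB/c mice, 9 to 10 weeks old. The mice received intravenous injections over 3 weeks of CM (control media) or TCM (tumor conditioned media). TCM was serum-free medium in which primary tumors of 4T1, a mouse breast cancer line, had been cultured. Each condition had 1 library, and the number of mice behind a library was not given. No difference could therefore be set against the spread between animals, no test was made, and all intervals are 95% intervals that cover counting error only.

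CD4 T cells recognise peptides on MHC class II and direct other immune cells through cytokines and surface ligands such as CD40L. Naive cells leave the thymus, express Ccr7 to enter lymph nodes, and circulate through the lung with the blood. After activation they can become memory cells, the T helper lineages set by factors such as Tbx21 and Gata3, or regulatory T cells, which depend on Foxp3 and restrain immune responses.

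The gate took few UMIs per cell. The members held a median of 2389 UMIs in CM (512 to 16769) and 2195 in TCM (579 to 10925), and 381889 and 248804 UMIs in all. Just inside the gate, 109 CM and 73 TCM members held a single Cd4 UMI, and 17 and 7 held a single Cd3 UMI. Just outside it, 541 CM and 382 TCM droplets met every condition but had no Cd4 UMI. Summed over the members, the counts were 182 CM and 158 TCM UMIs for Cd4, 324 and 233 for Cd3d, 452 and 338 for Cd3e, and 339 and 310 for Cd3g. Cd40lg, which encodes CD40L and was not part of the rule, stood at 7.59 UMIs per 100000 (CP100k) in CM and 7.64 in TCM CD4 T cells. In CD8 T cells, gated by the mirrored rule (240 CM and 131 TCM cells), it stood at 0.97 and 0.581. In the droplets just outside the gate for want of a Cd4 UMI it was 8.47 and 8.66 CP100k, a level near that of the members.

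The label was checked against genes that the rule did not use. All 14 further T cell identity genes were detected, among them Cd28, a costimulatory receptor (214 CM and 137 TCM UMIs), Lat, an adaptor of receptor signalling (202 and 125), and Cd2, an adhesion receptor (173 and 121). A UMI of a receptor constant gene, Trac, Trbc1 or Trbc2, was found in 94 of 142 CM members (66.2%) and 76 of 110 TCM members (69.1%). A few members carried RNA of other lineages. Epithelial markers aside, at least 10 UMIs of the markers of 1 other cell type were held by 9 CM and 2 TCM members, called the 11 cells of mixed content. In CM, 1 cell of 7117 UMIs held 90 monocyte and macrophage UMIs and 5 UMIs of the T cell identity genes. Another CM cell held 80 fibroblast UMIs, and the deepest, of 16769 UMIs, held 55 NK and ILC2 UMIs beside 70 of the T cell identity genes. In TCM, 1 cell of 4523 UMIs held 768 neutrophil UMIs and 5 UMIs of the T cell identity genes. Epithelial UMIs were spread over most members, with sums of 1283 (CM) and 1552 (TCM) and at least 10 of them in 54 CM and 78 TCM members, which were kept in all counts. They included Scgb1a1, the club cell secretoglobin, with a UMI in 140 of 142 CM and 109 of 110 TCM members. Free RNA, taken up by droplets from outside cells, was estimated at 117 UMIs per CM member and 245 per TCM member, or 4.35% and 10.8% of their UMIs, from the profile of droplets with at most 50 UMIs. From droplets with 51 to 200 UMIs the estimates were 77.9 and 124 UMIs per member. Both were scaled by 7 reporter genes, of whose UMIs Scgb1a1 brought 912 of 936 in CM and 984 of 1011 in TCM. The share of Scgb1a1 in the free RNA profile differed between the libraries, with a log2 ratio of TCM over CM of -0.56. The doublet caller marked 0 droplets in each library, so its calls were of no use and no doublets were removed beyond the gate. Why it marked none was not tested. The libraries shared 93 barcodes among all cells past the filters and 0 among the CD4 T cells. Values without the 11 cells of mixed content are given beside some of those that they moved.

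CD4 T cells were 1.78% of cells in CM (1.499 to 2.09%) and 1.43% in TCM (1.17 to 1.72%). Among the 7646 CM and 6097 TCM cells without a UMI of Csf3r, the receptor for G-CSF on neutrophils, the shares were 1.86% (1.57 to 2.19%) in CM and 1.80% (1.49 to 2.17%) in TCM. Of CD4 and CD8 T cells together, the CD4 cells were 37.2% in CM (32.3 to 42.2%) and 45.6% in TCM (39.2 to 52.2%). These intervals overlapped, and when every cell was first thinned to 1000 UMIs the values were 28.6% and 30.4%. CD8 T cells were 3.00% of cells in CM (2.64 to 3.40%) and 1.70% in TCM (1.42 to 2.01%).

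The next question was what set CD4 apart from CD8 T cells in the lung, which each library answered on its own. Of 2560 features with at least 30 UMIs over both cell types in each library, T cell receptor segments and the rule's genes excepted, 96 in CM (3.75%) and 142 in TCM (5.55%) were past 2-fold higher in CD4 T cells, 42 of them in both. Those past 2-fold lower numbered 37 (1.45%) and 48 (1.88%), with 17 in both. The rule itself separates these cell types, so the values are a description. The genes named here were chosen after their values were seen, from the 20 highest and the 20 lowest by the interval bound nearest 0 in both libraries. Tnfrsf4, which encodes the costimulatory receptor OX40, stood at 13.6 CP100k in CD4 and 0.415 in CD8 T cells of CM, and at 13.3 and 0.872 in TCM. It had a UMI in 21 CM and 11 TCM CD4 T cells. Those with a Foxp3 UMI held 29 of its 52 CM UMIs and 22 of its 33 TCM UMIs. St8sia6, a sialyltransferase, gave 12.3 and 0.693 in CM and 12.5 and 2.32 in TCM. Tspan32, a tetraspanin of blood cells, gave 12.8 and 2.35 in CM and 16.9 and 2.62 in TCM, and Trat1, an adaptor that binds the receptor complex, gave 8.12 and 1.39 in CM and 10.9 and 2.62 in TCM. All of these were past 2-fold higher in CD4 T cells in both libraries. Ctla4, Icos and Tnfrsf18 (GITR), receptors of activated and regulatory T cells, were also on that side, with log2 ratios of 1.46, 1.38 and 1.33 in CM and 2.54, 1.97 and 1.51 in TCM. Of the Ctla4 UMIs of CD4 T cells, 33 of 54 in CM and 46 of 59 in TCM were in cells with a Foxp3 UMI.

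Of the 12 cytotoxic genes, 11 had at least 10 UMIs over both cell types of CM and 6 over those of TCM. In CM 10 of the 11 were past 2-fold lower in CD4 T cells, all but Fasl, and in TCM 6 of the 6. Nkg7, a cytotoxic granule protein, stood at 1.31 CP100k in CD4 against 58.7 in CD8 T cells of CM, and at 2.01 against 49.4 in TCM. Klrd1, an NK receptor chain, had 1 UMI in the CD4 and 74 in the CD8 T cells of CM, and 2 and 56 in TCM. Ctsw and Prf1 (perforin) followed the same side, with log2 ratios of -2.45 and -2.64 in CM and -2.84 and -2.23 in TCM. Runx3, a transcription factor of the CD8 lineage, stood at 4.19 against 9.42 CP100k in CM and 3.22 against 9.59 in TCM. MHC class II genes such as H2-Aa were lower too, but in the 131 CD8-gated droplets of TCM the 128 H2-Aa UMIs came from 10 cells and the 52 H2-Ab1 and 46 H2-Eb1 UMIs from 3 cells each.

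**Figure D1:**
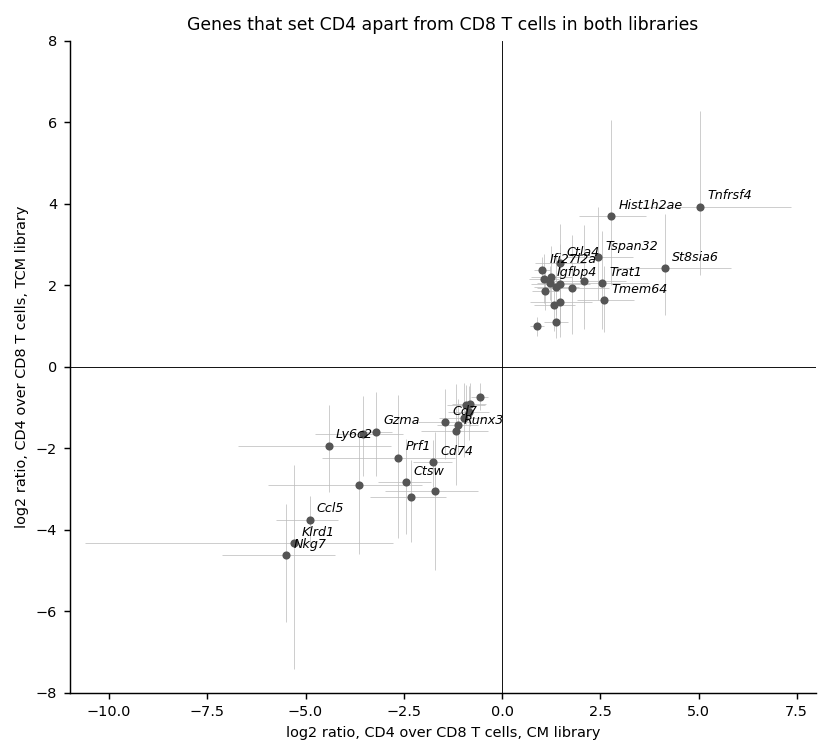
Log2 ratio of CD4 over CD8 T cells in the CM library (x axis) and in the TCM library (y axis) for the 20 genes highest and the 20 lowest by the interval bound nearest 0 in both libraries; points are genes and lines are 95% counting intervals. Tnfrsf4 lies farthest to the upper right (5.03 in CM, 3.93 in TCM) and Nkg7 lowest to the left (-5.49 and -4.62); all points lie in these quadrants because the genes were chosen for it.

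Most CD4 T cells carried genes of naive cells. Ccr7 (chr11:99144196-99155077, GRCm38), the receptor that leads T cells into lymph nodes, had a UMI in 109 of 142 CM cells (76.8%, 68.9 to 83.4%) and 80 of 110 TCM cells (72.7%, 63.4 to 80.8%). Lef1 and Tcf7, transcription factors of naive T cells, were detected in 68.3% and 59.2% of cells in CM, against 65.5% and 54.5% in TCM. Il7r, the receptor for the survival cytokine IL-7, was found in 63.4% (54.9 to 71.3%) and 74.5% (65.4 to 82.4%). Endothelial cells, which should lack Ccr7, gave 4.60% and 4.03% for it, at median depths of 2338 and 2917 UMIs among those without a Cd3 UMI. When each cell was thinned to 1000 UMIs, 31 CM and 33 TCM cells were too shallow and were dropped. Ccr7 was then seen in 63.1% and 53.2% of the remaining 111 and 77 cells. For each of these genes the CM and TCM intervals overlapped.

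Genes of helper lineages were rare. Tbx21 (T-bet) had no UMI in any of the 142 CM or 110 TCM cells. By the limit of 3 counts that a count of 0 allows, the share of cells with a UMI was up to 2.11% in CM and 2.73% in TCM, and the Clopper-Pearson intervals reached 2.56% and 3.30%. Gata3 was detected in 9.86% of CM and 7.27% of TCM cells, against 4.60% and 3.73% of endothelial cells. After thinning it was in 2 cells of each library (1.80% and 2.60%), with endothelial values of 1.12% and 1.27%. Such counts are too few to set it above or below the endothelial share. These endothelial cells included droplets with a Cd3 UMI, and whether they express Gata3 themselves was not tested. Cxcr3, a chemokine receptor of T helper 1 and memory cells, was in 8 CM and 4 TCM cells, and Itgae, the integrin chain CD103 of tissue-resident cells, in 5 and 2. Icos, a costimulatory receptor, was found in 19.0% of CM (12.9 to 26.4%) and 28.2% of TCM cells (20.02 to 37.6%). Cd44, which rises on activation, was found in 12.0% and 16.4%, against 6.75% and 7.16% of endothelial cells. Izumo1r, folate receptor 4 of CD4 T cells, was in 27 CM cells (19.0%) and 14 TCM cells (12.7%), against 4.17% and 3.82% of CD8 T cells.

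**Figure D2:**
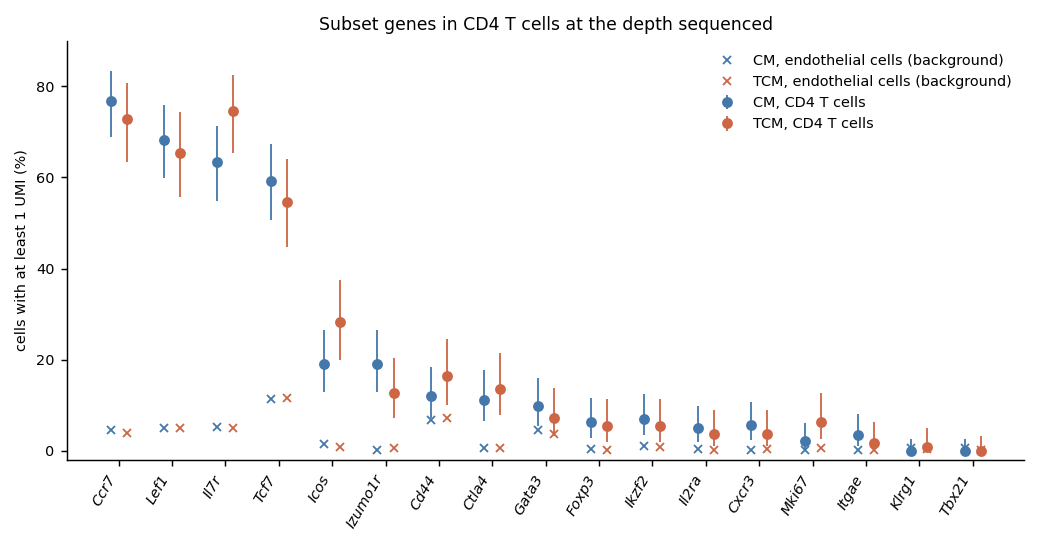
Share of cells with at least 1 UMI (y axis, %) for 17 subset genes in CD4 T cells of CM (blue) and TCM (orange), with 95% intervals, and in endothelial cells (crosses, labelled background). Ccr7 is highest in CM (76.8%) and Il7r in TCM (74.5%), Foxp3 stands at 6.34% and 5.45%, and Tbx21 is at 0 in both.

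Foxp3 (chrX:7573644-7595245, GRCm38) marked a small subset in both libraries. It had a UMI in 9 of 142 CM cells (6.34%, 2.94 to 11.7%) and 6 of 110 TCM cells (5.45%, 2.03 to 11.5%), against 0 of 240 and 1 of 131 CD8 T cells and 0.478% and 0.241% of endothelial cells. At 1000 UMIs per cell it was seen in 2 of 111 and 1 of 77 cells, so the shares of the libraries could not be told apart at this depth. The sum of the other regulatory genes was higher in the cells with Foxp3 than in the other CD4 T cells of each library. It came to 301 CP100k in the 9 CM cells and 49.995 in the 133 cells without Foxp3, a log2 ratio of 2.59 (2.26 to 2.92). In TCM the sums were 540.0 and 48.1 CP100k, a log2 ratio of 3.49. Of the 9 CM cells 2 were among the cells of mixed content, against 0 of the 6 TCM cells, and these 2 held 9 of the 23 Foxp3 UMIs of CM. With the cells of mixed content left out of both sides, the log2 ratio was 2.81 (2.45 to 3.17) in CM and 3.48 (3.10 to 3.85) in TCM. Ctla4, an inhibitory receptor, stood at 66.2 against 6.32 CP100k in CM and at 174 against 5.85 in TCM, where 27 of its 59 UMIs were in 1 cell. Ikzf2 (Helios), a transcription factor of regulatory T cells, stood at 22.1 against 1.81 in CM and 56.6 against 1.35 in TCM, and without the cells of mixed content at 15.6 against 1.64 in CM, on 5 UMIs each. Tnfrsf4 stood at 58.2 against 6.93 in CM and 83.1 against 4.95 in TCM. Not every regulatory gene had such a ratio, since Izumo1r in TCM had an interval that held 0 and Ikzf4 and Gpr83 had at most 3 UMIs on either side.

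Summed over cells, those with Foxp3 were also poor in most naive genes and rich in genes of activated cells. Of the UMIs of the activated and memory genes in the 6 TCM Foxp3 cells, 1 cell held 281 of 454. Among the 7 CM Foxp3 cells not of mixed content, 1 held 271 of 535. Lef1 was at 12.0 CP100k with and 71.1 without Foxp3 in CM, and at 11.3 and 63.0 in TCM. Il7r, which regulatory T cells are known to carry at low levels, was at 16.0 and 98.5 in CM and at 26.4 and 109 in TCM. Ccr7 was lower in the Foxp3 cells of CM (log2 ratio -1.98, -2.73 to -1.32), whereas in TCM its interval held 0 (-0.41, -1.03 to 0.16). In CM 1 cell held 17 of the 19 Ccr7 UMIs of the Foxp3 cells. Lgals1 (galectin-1) was at 357 against 20.8 CP100k in CM and 332 against 24.7 in TCM. A single CM cell of mixed content held 98 of the 247 Lgals1 UMIs of CM, and without the cells of mixed content the CM levels were 249 against 19.1. In TCM 1 cell held 56 of the 88 Lgals1 UMIs of the Foxp3 cells. S100a6, a calcium-binding protein, was at 174 against 18.7 CP100k in CM, or 159 against 19.1 without the cells of mixed content, and at 249 against 32.4 in TCM. Of its UMIs in the Foxp3 cells, 1 cell held 53 of 66 in TCM. In CM 1 cell held 47 of the 51 left without the cells of mixed content. The growth factor Areg (amphiregulin), which regulatory T cells of the lung can secrete, had 24 UMIs in CM, all in 1 cell with Foxp3, and 1 UMI in TCM.

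**Figure D3:**
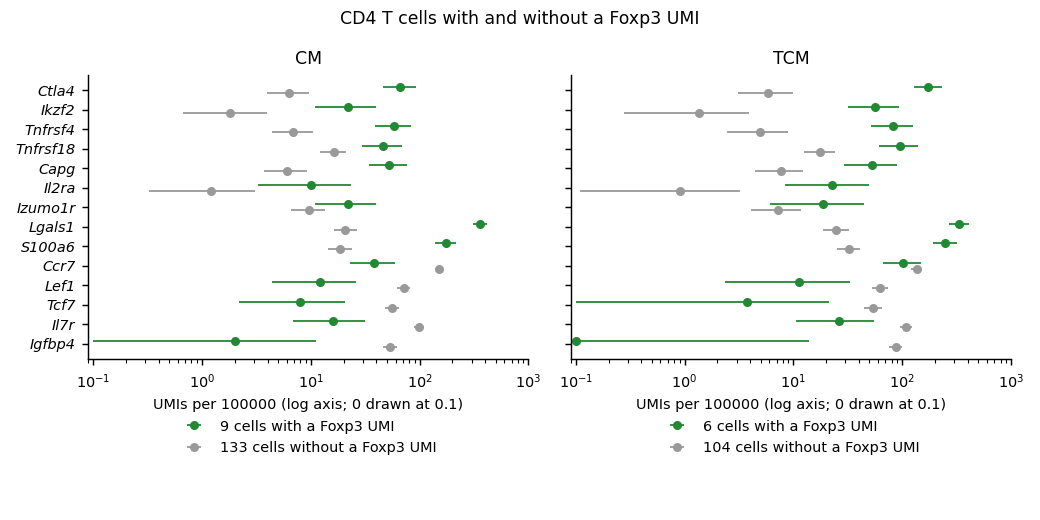
Level (x axis, UMIs per 100000, log axis) of 14 genes in CD4 T cells with a Foxp3 UMI (green) and without one (grey), in CM (left, 9 and 133 cells) and TCM (right, 6 and 104 cells), with exact Poisson intervals. Regulatory genes such as Ctla4 (66.2 against 6.32 in CM) and Lgals1, a gene of activated cells, lie to the right in the Foxp3 cells, and Lef1, Tcf7, Il7r and Igfbp4 lie to the left.

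Few members held RNA of dividing cells. Mki67 (Ki-67), present in cells in cycle, had 15 UMIs in 3 CM cells and 47 UMIs in 7 TCM cells, a log2 ratio of 2.27 (1.40 to 3.21). Without the 11 cells the UMIs were 9 and 46. The shares of cells with a Mki67 UMI had overlapping intervals, at 2.11% in CM (0.438 to 6.05%) and 6.36% in TCM (2.60 to 12.7%). Cdk1 (9 and 13 UMIs) and Ccnb2 (8 and 13) were past 2-fold as well, with Top2a. Cells with at least 10 UMIs over the 13 proliferation genes numbered 4 in each library, so a handful of cells set these levels. Top2a, a topoisomerase of dividing cells, had 20 and 29 UMIs in 3 and 4 cells, and Pclaf, a PCNA-binding factor, 31 and 12 UMIs in 4 and 4 cells, of which 14 and 12 were left without the 11 cells (log2 ratio 0.25, with an interval that held 0). Of the cells with Mki67, 2 in CM and 3 in TCM also held a Foxp3 UMI.

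The 5-prime libraries read into the variable segments of the receptor, so the segment Trbv of the beta chain could be counted. Exactly 1 segment was detected in 86 CM and 77 TCM members, none in 28 and 19, and more than 1 in 28 and 14. Trbv31 was carried by 13 of 86 CM cells (15.1%, 8.30 to 24.5%) and 11 of 77 TCM cells (14.3%, 7.35 to 24.1%). In CD8 T cells it was carried by 4 of 136 (2.94%, 0.807 to 7.36%) and 3 of 88 (3.41%, 0.709 to 9.64%). In CM the intervals of CD4 and CD8 cells did not overlap, whereas in TCM they did, though the CD4 share was the higher in both. No rule set in advance chose which of the Trbv segments are named here. Trbv13-1 was found in 10.5% of CM and 19.5% of TCM CD4 cells, with overlapping intervals. Trbv29 was carried by 7 CM cells (8.14%, 3.34 to 16.1%) and by 0 of 77 TCM cells, which allows a share of up to 3.90% by the limit of 3 counts and 4.68% by the Clopper-Pearson interval. In CD8 T cells Trbv29 was found in 10.3% and 6.82%.

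For the comparison of TCM with CM, the UMIs of each gene were summed over the members of a library and divided by all their UMIs. Of 2898 features with at least 30 UMIs over both libraries, 127 (4.38%) were past 2-fold, 55 (1.9%) higher and 72 (2.48%) lower in TCM. Of the 127, 117 had under 100 UMIs, and the median log2 ratio of all features tested was -0.01. Intervals lay wholly above 0 for 137 of the 2898 features and wholly below 0 for 145, so the intervals of named genes are to be read beside these counts. The typical interval reached 0.812 to each side on the log2 scale, so a difference below about that size was not detectable at this depth for a typical gene.

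The gene lists took members with at least 10 UMIs over both libraries. Of all 6374 features at that minimum, 862 (13.5%) were past 2-fold, 420 (6.59%) higher and 442 (6.93%) lower in TCM, so list counts are to be read against these shares. Of 14 T cell identity genes, 0 were past 2-fold in either direction and the median log2 ratio was 0.10. Trac, the alpha chain constant gene, stood at 17.5 CP100k in CM and 30.1 in TCM (log2 ratio 0.78, 0.29 to 1.28). Of 12 naive genes, 6 were higher and 6 lower, 0 past 2-fold, with a median of -0.01. Ccr7 was at 136 CP100k in CM (124 to 148) against 132 (118 to 147) for TCM. Igfbp4 was the naive gene that differed most, at 46.6 (40.0 to 54.0) and 78.0 (67.4 to 89.8), a log2 ratio of 0.74 that was 0.73 without the 11 cells of mixed content. It was -0.09 in CD8 T cells (-0.53 to 0.34). Of 9 regulatory genes with at least 10 UMIs, 0 were past 2-fold higher and 1, Tnfrsf9 (4-1BB, 11 and 2 UMIs), was past 2-fold lower. Ctla4 gave 0.75, which turned to -0.39 with at most 5% mitochondrial UMIs and to -0.25 under a stricter gate. Of 16 activated and memory genes, 1 was past 2-fold lower, Cxcr6, a receptor of tissue-resident cells (24 and 6 UMIs, 16 of the CM UMIs in 1 cell). The median of that list was 0.15, and 0.43 without the 11 cells. Among its genes Anxa2 was past 2-fold higher only without them, with 33 and 58 UMIs and a log2 ratio of 1.28 (0.64 to 1.95). The regulatory median was 0.05, and 0.38 without them.

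Among all features tested 1472 of 2898 were lower in TCM, and the lists of inducible genes are read beside that. Of 9 genes induced by receptor signals, 7 were lower and 2, Nr4a3 and Tnfrsf9, past 2-fold, with a median log2 ratio of -0.62 that was -0.49 without the 11 cells. Nr4a3, an orphan nuclear receptor, had 34 UMIs in 22 CM cells and 10 UMIs in 9 TCM cells, a log2 ratio of -1.15 (-2.33 to -0.10). Dusp5, a MAP kinase phosphatase, stood at 17.8 and 9.65 CP100k (-0.88, -1.62 to -0.19). Both intervals stayed below 0 without the 11 cells. In CD8 T cells the ratios of Nr4a3 and Dusp5 were -0.47 and -0.40, with intervals that held 0. The median of the whole receptor-induced list was -0.47 in CD8 T cells too, with 6 of 9 genes lower. It was -0.07 in B cells and -0.15 in endothelial cells. Of 16 immediate early genes, 13 were lower and 1, Atf3, past 2-fold, with a median of -0.15 that was -0.069 without the 11 cells, and 22 of the 27 Atf3 UMIs of CM were in 1 cell. Fos gave -0.65 with all members and 0.39 without the 11 cells, and 39 of its 82 CM UMIs were in 1 cell. Zfp36l2, an RNA-binding protein that shortens mRNA life, stood at 37.2 and 24.1 CP100k (-0.62, -1.09 to -0.18), and at -0.68 without the 11 cells. Of 12 NF-kB genes 0 were past 2-fold. Rel, a subunit used by lymphocytes, was at 14.9 and 8.84 CP100k, a log2 ratio of -0.76 (-1.54 to -0.02).

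Of 10 heat-shock genes, which encode chaperones, 7 were lower in TCM and 1 past 2-fold, while the median was -0.08. Hsp90ab1 (chr17:45567775-45573271, GRCm38), a cytosolic chaperone of signalling proteins, stood at 202 CP100k (188 to 217) in CM against 149 (134 to 165) for TCM, a log2 ratio of -0.44. Hspa8, a constitutive chaperone, stood at 183 and 156 (-0.23, -0.41 to -0.05), and Hspd1, a mitochondrial one, at 19.9 and 11.3 (-0.82, -1.50 to -0.18). Hsp90aa1, the inducible form of the cytosolic chaperone (139 and 86 UMIs, -0.07), and Dnaja1, a co-chaperone (170 and 104 UMIs, -0.09), had intervals that held 0, and their ratios were 0.11 and -0.14 without the 11 cells. Hsp90ab1, Hspa8 and Hspd1 had ratios below 0 in CD8 T cells (-0.36, -0.25 and -0.69), in B cells (-0.28, -0.36 and -0.23) and in endothelial cells (-0.29, -0.32 and -0.27). Dnajb1, a co-chaperone, had 85 and 22 UMIs (-1.33), but 36 of the CM UMIs were in 1 cell, and without the 11 cells the ratio was -0.53 with an interval that held 0. The stress-induced Hspa1a was close in both (36 and 24 UMIs, 0.03). With all members 0 genes of the list were past 2-fold higher. Without the 11 cells Hspa1b was on that side, with 10 and 20 UMIs and a log2 ratio of 1.47 (0.31 to 2.73).

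Of 16 type I interferon genes with at least 10 UMIs, 10 were higher in TCM. Past 2-fold higher were Isg20 (5 and 7 UMIs), Irf7 (6 and 8) and Rtp4 (8 and 11), and lower were Stat2 (10 and 2) and Trim30a (16 and 4), all low in number. The median was 0.32, and 0.02 when each cell had equal weight. Ifi27l2a (chr12:103442167-103443680, GRCm38), an interferon-induced gene, stood at 113 CP100k (102 to 124) in CM against 161 (146 to 178) for TCM, a log2 ratio of 0.51 that was 0.53 without the 11 cells. In CD8 T cells it was on the other side, at -0.83 (-1.15 to -0.52). A single cell held 45 of its 431 UMIs in CM and 93 of its 401 in TCM. The interferon-inducible GTPases had a median of 0.39 and 2 of 12 past 2-fold higher, Gbp6 (4 and 9 UMIs) and Gbp9 (11 and 16). The MHC class I list, with H2-D1 at 264 and 270.5 CP100k and B2m at 148 and 149.5, had a median of 0.03, and 1 of 15 genes, H2-Q7 (24 and 7 UMIs), was past 2-fold lower.

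Among surface receptors, the costimulation list had a median of 0.35 with Tnfrsf1b (6 and 9 UMIs) past 2-fold higher and Tnfrsf9 lower among 12 genes. Icos stood at 16.2 and 26.1 CP100k (0.69, 0.16 to 1.21), a direction that turned to -0.16 with at most 5% mitochondrial UMIs. Tigit, an inhibitory receptor, had 20 and 29 UMIs in 12 and 11 cells (1.15, 0.28 to 2.05). The cytokine receptor list had a median of 0.23 and 0 of 17 genes past 2-fold. Its common gamma chain Il2rg was at 54.5 and 74.8 CP100k (0.46, 0.16 to 0.75). Of 21 homing and adhesion genes, 2 were past 2-fold higher and 2 lower, all with few UMIs: Ccr6 (2 and 9) and Ccr10 (1 and 10) higher, Ccr9 (20 and 2) and Cxcr6 lower. Itga4, the alpha 4 integrin, had 65 UMIs in each library (0.62, 0.10 to 1.14). Bcl2, the survival factor, was at 13.4 and 20.9 CP100k (0.65, 0.06 to 1.23). The glycolysis list had 0 of 14 past 2-fold and a median of -0.05, with Ldha (lactate dehydrogenase) at 68.3 and 64.3. The lipid metabolism list had 3 of 12 past 2-fold, against 13.5% of all features, each on few UMIs: Cpt1a, the carnitine transferase of fatty acid oxidation (9 and 12 UMIs), and Srebf2 (16 and 21) higher, and Insig1 (14 and 4) lower. The T helper 1, 2 and 17 lists rested on 4, 3 and 4 genes with at least 10 UMIs and the clock list on 7, and their medians were 0.91, -0.33, 0.76 and -0.06. The T helper 1 genes included Ccl5 (15 and 24 UMIs, 1.30). Free RNA was expected to bring 95.2% of its CM and 61.6% of its TCM UMIs. The medians of the other lists were as follows: receptor signal transduction 0.13, glucocorticoid-induced 0.10 (Zbtb16, 16 and 2 UMIs, and Klf9, 9 and 2, past 2-fold lower), survival 0.19 (Fas past 2-fold higher, 7 and 13 UMIs), proliferation 0.23 (0.88 without the 11 cells), cytotoxic 0.03 (0.47 without them), and follicular helper and inhibitory receptor 0.44.

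**Figure D4:**
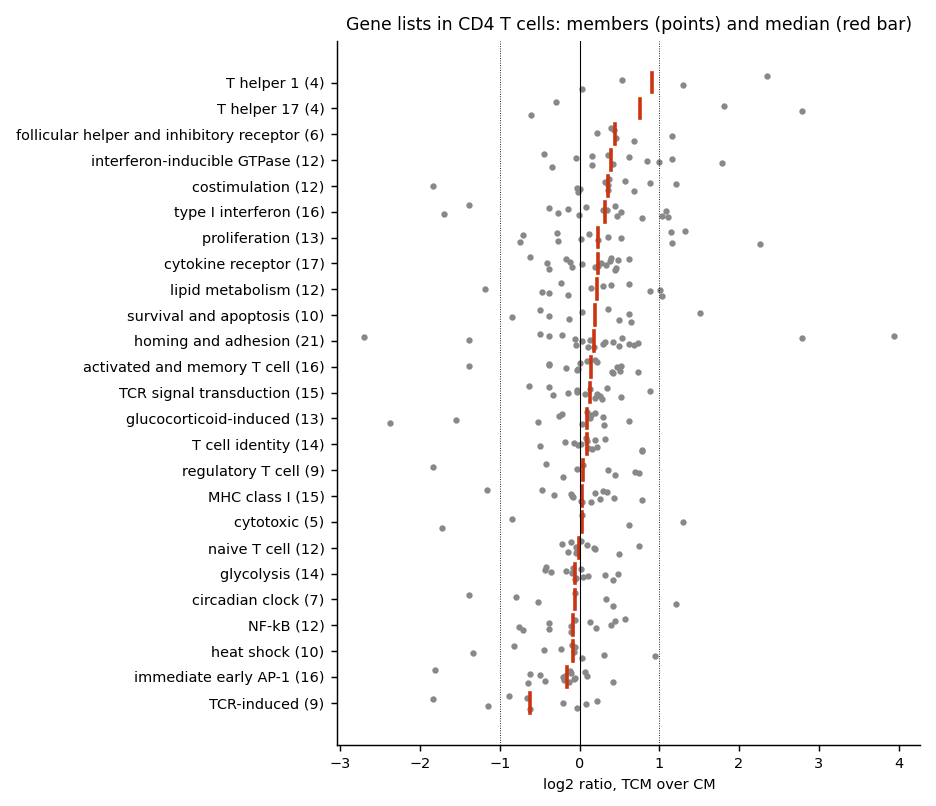
Log2 ratio of TCM over CM (x axis) for the members with at least 10 UMIs of 25 gene lists in CD4 T cells (grey points) and the list median (red bar), with the number of members in brackets and dotted lines at 2-fold. Most medians lie near 0; the receptor-induced list is lowest at -0.62, and the high T helper 1 and 17 medians rest on 4 genes each.

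The genes ranked highest in TCM, by the interval bound nearest 0, were led by neutrophil genes. S100a9 (chr3:90692632-90695721, GRCm38), a chain of calprotectin, had 5 UMIs in CM and 499 in TCM, of which 415 were in 1 cell. The other TCM members held 84, at most 4 per cell, and free RNA alone was expected to bring 117, or 76.6 by the profile of droplets with 51 to 200 UMIs. In CM, where 5 were seen, the same estimates were 16.0 and 6.12, above the count. S100a8, its partner, had 2 and 299 UMIs, 234 of the TCM UMIs in 1 cell, and 65 in the others against 71.0 or 54.9 expected, while for the 2 in CM 8.63 or 3.29 were expected. G0s2, a lipase inhibitor abundant in neutrophils, had 4 and 64 UMIs, 54 of them in 1 cell. A S100a9 UMI was found in 51.8% of TCM and 3.52% of CM members, in 48.1% and 3.75% of CD8 T cells, and in 51.3% and 8.24% of endothelial cells. After thinning it was in 24.7% and 2.70% of members.

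Among the other genes ranked higher, Ly6e (chr15:74955051-74959905, GRCm38), a GPI-anchored protein induced by interferon, stood at 23.8 CP100k in CM (19.2 to 29.3) and 51.4 in TCM (42.9 to 61.2), with 24 of 91 and 28 of 128 UMIs in 1 cell of each library. Its log2 ratio of 1.11 was 1.08 without the 11 cells, and it was -0.21 in CD8 T cells (-0.56 to 0.13). The mitochondrial genes mt-Atp8 and mt-Co3, subunits of ATP synthase and cytochrome oxidase, gave 1.22 and 0.59, and were on the same side in CD8 T cells (0.97 and 0.50), B cells (0.75 and 0.36) and endothelial cells (0.55 and 0.24). The median mitochondrial share of UMIs in the members was 1.92% in CM and 2.55% in TCM. Igfbp4, Macf1 (a cytoskeletal linker, 0.74) and Ptprcap (a partner of the phosphatase CD45, 0.76) were ranked here as well, and Macf1 and Ptprcap gave 0.11 and -0.04 in CD8 T cells. Snx14, Mylip, Leprot, Immp1l, Cdc25b and Gm4316 completed the group with at least 30 UMIs each and log2 ratios between 1.18 and 1.68. All 15 kept intervals above 0 without the 11 cells, 11 were past 2-fold, and 9 had ratios above 0 in CD8 T cells, where 1939 of all 4132 features tested did. These counts include S100a9, S100a8 and G0s2, for which expected free RNA was 23.5%, 23.7% and 20.2% of the TCM UMIs of all members. Without the 11 cells their TCM UMIs were 83, 62 and 10. Free RNA was expected to bring 117, 71.0 and 12.9, or 76.6, 54.9 and 7.06 by the profile of droplets with 51 to 200 UMIs. Whether the members express these genes was not tested.

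Of the 15 genes ranked lowest, all were past 2-fold, and 9 kept an interval below 0 without the 11 cells. The 6 that did not were Id3, Mfap4, Gpx3, Lgals3, Dnajb1 and Cebpd. The 11 cells held much of their CM UMIs: 48 of 65 Mfap4 UMIs (a fibroblast matrix protein) and 43 of 63 Cebpd UMIs were in 1 cell each, and without the 11 cells Id3 went from -2.13 to 0.28. Of the 9 that did, Dnaja2 (chr8:85537633-85555344, GRCm38), a co-chaperone of Hsp70, had 66 UMIs in 44 CM cells and 14 in 14 TCM cells, a log2 ratio of -1.62 (-2.57 to -0.77). Timm10b, a mitochondrial import factor, had 64 UMIs in 46 cells and 14 in 10 cells, and Twistnb, a subunit of RNA polymerase I, 56 in 44 and 12 in 11. Tubb2a (69 and 18 UMIs), Gadd45b (51 and 10), Pdha1 (34 and 6), Washc2 (28 and 4) and Mplkip (26 and 4) completed the set. Mid1 (chrX:169685199-170005736, GRCm38), a microtubule-associated ubiquitin ligase, had 39 and 7 UMIs (-1.86) and was also lower in the other cell types compared, at -0.99 in CD8 T, -2.14 in B and -1.22 in endothelial cells. Of the 15, 10 had ratios below 0 in CD8 T cells, where 2193 of the 4132 features tested had ratios below 0.

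**Figure D5:**
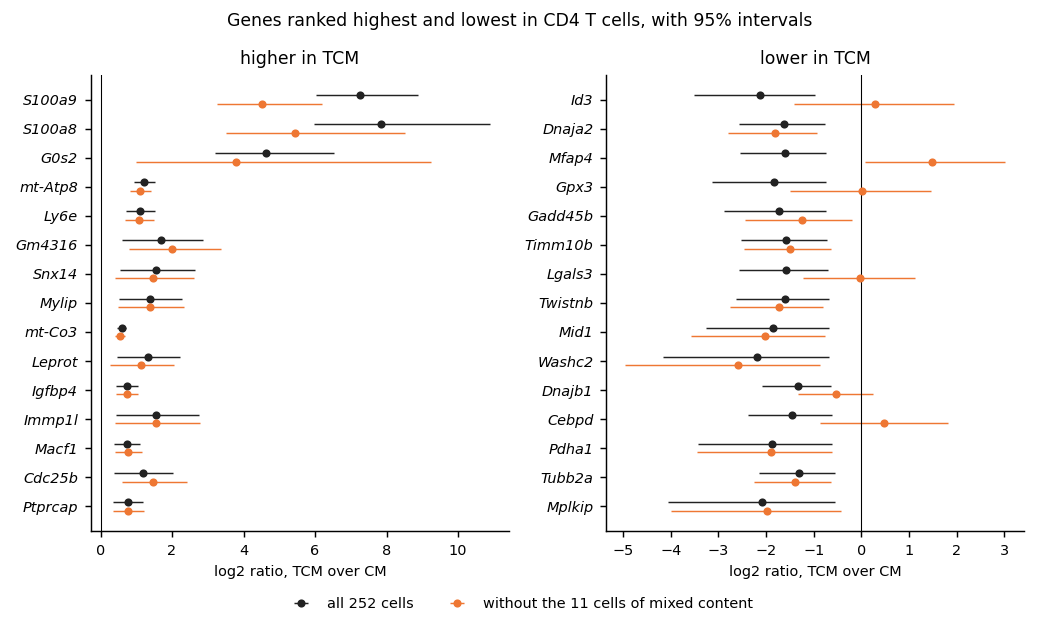
Log2 ratio of TCM over CM (x axis) of the 15 genes ranked highest (left) and lowest (right) in CD4 T cells, with 95% counting intervals, for all 252 cells (black) and without the 11 cells with at least 10 UMIs of another cell type, epithelium not counted (orange). The orange points of Id3, Mfap4, Gpx3, Lgals3, Dnajb1 and Cebpd or their intervals reach or pass 0, while Ly6e (1.11 and 1.08) and Dnaja2 (-1.62 and -1.81) hardly move.

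Genes of which free RNA could make up over 25% of the UMIs in the higher library were kept apart. Of the 10 higher in TCM, 7 were past 2-fold. They included Sftpc, a surfactant protein of alveolar type II cells, with 263 and 431 UMIs (1.33), and the cytokine Il1b with 7 and 29 UMIs. For both, the free RNA expected in TCM was near all that was seen, at 116% and 97.3%. The Il1b count included 14 UMIs in 1 TCM cell. The 4 lower in TCM were Inmt, Sparc, Gsn and AY036118, and without the 11 cells Inmt and Gsn had intervals that held 0. Their part in the members' own expression was not tested.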

How the data were processed

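The authors dissociated lungs, made 5-prime droplet libraries (10x Genomics) and processed them against mm10 (GRCm38.p6), and the submitters' notes name Cell Ranger and Seurat. The deposited matrices hold raw UMI counts per gene and droplet, 31944151 in CM and 36648719 in TCM. Droplets with at least 500 UMIs, 200 genes and at most 10% mitochondrial UMIs were kept. The members and the gene lists were chosen with earlier results of these data known. Counts were summed per library (Python 3.11.15, numpy 2.4.6, scipy 1.17.1, pandas 2.3.3, scanpy 1.11.5), and against a sum of 0 a floor of 3 counts was used. Intervals were exact Poisson for levels, Clopper-Pearson for shares and conditional binomial for ratios. List medians took members with at least 10 UMIs. Genes were named per list as those with the most UMIs or, with at least 30 UMIs, the largest ratio. Others were the 15 highest and 15 lowest by interval bound, with a UMI in at least 10 cells of the library where the gene was higher. A gene could thus pass through the library where it was high, as G0s2 did with 10 TCM and 3 CM cells. List members named beyond this, the genes of the Foxp3 split and of CD4 against CD8 T cells were chosen after their values were seen. Free RNA was profiled in droplets of at most 50 UMIs and scaled by 7 reporter genes, almost wholly through Scgb1a1. The calculation of the ratios was tried on simulated Poisson counts, which is the model that the intervals assume. This could not show how the intervals hold for UMIs clumped in single cells. Coordinates are from GENCODE vM21. Leaving out the 11 cells, set by markers of other types than epithelium, was chosen after seeing the data. The authors' annotation of cells was not used here, and some genes are not reported here.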

Additional observations from a re-analysis of the deposited data

How the results depend on the processing

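With 1 library a group, leaving a library out was not possible. No paired analysis was possible because each group has 1 library and no result comes from a test. Of the gene list medians under all alternatives, 234 stayed within the counting spread, 84 moved and 3 changed sign. For lists, a sign change was counted only where the median with all members was past 2-fold. Of the values of named genes, 913 stayed, 85 moved and 28 changed sign. Unless said, the cause was not tested. The depth of 252 cells limits most single genes, and the group cannot be told apart from the library.

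With every cell thinned to 1000 UMIs before the gate, CD4 T cells were 0.946% of cells in CM and 0.576% in TCM, and 28.6% and 30.4% of CD4 plus CD8 T cells. Without Csf3r-positive cells in the denominator the TCM share was 1.80%. The 127 genes past 2-fold became 257 as a mean over cells, 33 after thinning members, 10 with at least 100 UMIs, 1588 with no minimum and 502 at 1.5-fold. With at most 5% mitochondrial UMIs the thinned Foxp3 share in TCM was 0, the identity median -0.10, the regulatory median -0.52, Ptprc -0.18, Ctla4 -0.39 and Icos -0.16. As a mean over cells the naive median was 0.11, AP-1 -0.036, type I interferon 0.021, MHC class I -0.064, NK and ILC2 0.63, Cxcr6 0.090 and Gzma 0.63. After thinning members, identity was -0.082, regulatory 0.79, AP-1 -0.050, interferon 0.050, fibroblast 0.53, Cebpd 0.24, Cbr2 -0.47, Gsn 1.53, Fos 0.18 and Selplg -0.092. With free RNA subtracted, Scgb1a1 was -1.16 and Ifitm2 -0.059, and without the Csf3r condition Scgb1a1 was -0.38. Under the stricter gate, which left out members with more than 1 UMI over 11 further marker genes of other cell types, regulatory was -0.33, AP-1 -0.29, interferon 0.11, Lgals3 0.046 and Ctla4 -0.25. With the top 6% of doublet scores removed, AP-1 was -0.012, Mfap4 0.78, Cebpd 0.43, Gsn 0.41, Atf3 0.56 and Fos 0.29. Without the 11 cells, a choice made after seeing the data, naive was -0.12, regulatory 0.38, MHC class I -0.046, NK and ILC2 3.93, Id3 0.28, Mfap4 1.47, Gpx3 0.011, Cebpd 0.47, Gsn 0.25, Atf3 0.47, Fos 0.39 and Gzma 3.93. The NK and ILC2 median rested on 1 gene, Gzma, so the 2 values are the same result in each setting. Without the 11 cells Gzma had 1 UMI in CM and 11 in TCM.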
